A study of Homo sapiens with 6 samples.

Results

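The genes of sterol and fatty acid synthesis were examined in NK92 cells, an IL-2-dependent human line derived from an NK cell lymphoma, after knockdown of the lncRNA miR155HG. The members were 33 genes of these pathways, picked by symbol out of the 36601 genes in the count table, and all 33 were found. Cells carried a stably expressed control shRNA (shCtrl, 3 libraries) or an shRNA against miR155HG (shmiR155HG, 3 libraries), and both groups had received 10 ng/mL of IL-12 together with 1000 U/mL of IL-2, for 12 h. Poly(A) RNA was sequenced, and the deposited values were read counts per gene. Whether the libraries of a group came from separate cultures or transductions is not stated in the labels, so p-values measure only the spread between these libraries, which may be technical. The sample titles name the same shRNA for all libraries of a group, so the knockdown and any other difference between the stable lines cannot be told apart.

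Cholesterol is built in the cytosol and endoplasmic reticulum from acetyl-CoA, first through mevalonate to farnesyl diphosphate, then through squalene and lanosterol to the sterol itself. Fatty acids are built from the same acetyl-CoA. Both routes are controlled by SREBP transcription factors, which are held in the endoplasmic reticulum by SCAP and INSIG proteins when sterols are plentiful and travel to the Golgi for cleavage when sterols are scarce, so the enzyme mRNAs commonly move together. Lymphocytes that are activated or dividing need these lipids for new membranes, and SREBP is known to take part in the metabolic response of cytokine-treated NK cells.

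SREBPs bind the sterol regulatory element and work with NF-Y, which binds the CCAAT box, so the promoters were searched for both as something the choice of members did not use. Promoter windows of 300 bases (250 before and 50 after the transcription start, RefSeq, GRCh38.p14) were present for 29 of the 33 members. ACAT2, FDFT1, SQLE and FASN had none. The 4 stretches of 60 bases below, written 5′ to 3′ along the gene, belong to SREBF2, which encodes SREBP2, and to FDPS, MVD and STARD4, members with a CCAAT box upstream of the start whose mRNA level passed the test described later. Capitals mark the letters TCACNCCAC of the sterol regulatory element core and CCAAT on either strand (ATTGG on the other).
SREBF2, chr22:41832946-41833005, plus strand: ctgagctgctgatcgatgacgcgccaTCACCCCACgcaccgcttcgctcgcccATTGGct
FDPS, chr1:155308689-155308748, plus strand: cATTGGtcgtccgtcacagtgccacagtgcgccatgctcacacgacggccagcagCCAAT
MVD, chr16:88663207-88663266, minus strand: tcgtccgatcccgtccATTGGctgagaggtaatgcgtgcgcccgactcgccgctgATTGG
STARD4, chr5:111512661-111512720, minus strand: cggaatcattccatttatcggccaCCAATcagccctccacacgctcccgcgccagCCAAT
The CCAAT letters were present in a window of 21 of the 29 members (72.4%), against 43.7% of the 9054 tested genes with a window and 39.8% of all 27058 genes with a window. By group, they were found in 5 of 6 genes of the mevalonate pathway, 8 of 9 genes from squalene to cholesterol, 3 of 6 genes of sterol sensing and transport and 5 of 8 genes of fatty acid synthesis. That of FADS2 lay 5 bases after the start. SCAP and AACS, called like the others, had none. The sterol regulatory element core was found in SREBF2 alone among the members, its first base 133 bases before the start, and in 1.38% of all genes with a window. With A before these letters and C in place of N, it was present in 0.0460% of the 34796 windows, SREBF2 included. These are exact matches of letters in a short window. Elements that differ from these letters were not searched for, and binding was not measured.

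**Figure D1:**
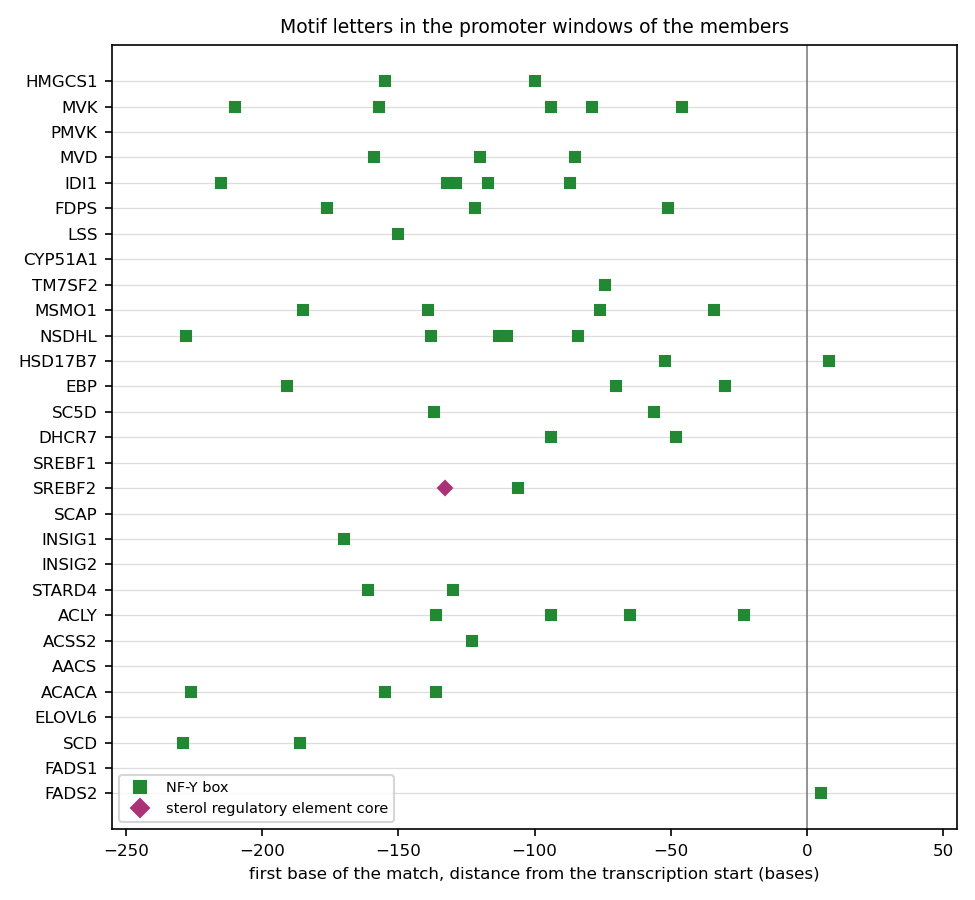
Position of the first base of each CCAAT box (squares) and sterol regulatory element core (diamond) relative to the transcription start (bases, x axis) in the promoter windows of 29 members (y axis). Most matches lie before the start, and the single diamond is that of SREBF2; members with several annotated starts show the matches of all their windows.

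Library totals ran from 33454786 to 39157264 counts, and TMM factors from 0.997 to 1.003. MIR155HG, the targeted gene, had 1.87, 1.83 and 1.59 CPM in the shCtrl libraries and 0.729, 0.498 and 0.299 CPM in the shmiR155HG libraries, without overlap, and a log2 fold change of −1.78 (adjusted p = 0.00450, SE 0.429). Of 10 NK cell markers, 9 were expressed and CD7 was near 0, and their summed level was 3103 to 3197 CPM in shCtrl libraries and 3431 to 3519.7 CPM in shmiR155HG libraries, with 3 of the 9 called higher and 2 lower. MS4A1 and CR2 of the 4 B cell markers were at or near 0 while PAX5 was expressed, with a summed level of 229 to 264 CPM in shCtrl libraries and 340.4 to 344 CPM in shmiR155HG libraries. The 5 T cell markers, with TRAC expressed and CD4 and CD8A at or near 0, summed to 71.0 to 75.5 and 68.6 to 78.7 CPM, and the 5 myeloid markers, with LYZ at or near 0, to 21.3 to 29.2 and 15.7 to 21.7 CPM. The 15 replication-dependent histone genes, whose mRNAs mostly lack a poly(A) tail, summed to 44.6 to 49.8 CPM in shCtrl libraries and 85.7 to 91.7 CPM in shmiR155HG libraries. The part of these lists in the differences of the members was not tested.

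All members except ACSS2 were expressed in these cells. Summed over the 33 members, the level was 3899.7 ± 88.9 CPM for shCtrl and 3857 ± 25.7 CPM for shmiR155HG (SD, n = 3 each), and the shmiR155HG libraries (3827 to 3873 CPM) lay within the range of the shCtrl libraries (3802 to 3976 CPM). Per kb of the canonical transcript, levels spanned 47.2-fold over the 32 tested members. EBP, a sterol isomerase, was highest at 139 CPM per kb as a mean of the 6 libraries. It was followed by the farnesyl diphosphate synthase FDPS at 108, by ACLY, which makes acetyl-CoA from citrate, at 108, by the fatty acid synthase FASN at 96.1 and by the stearoyl-CoA desaturase SCD at 92.8 CPM per kb. The order of the neighbours FDPS and ACLY was not fixed, since FDPS had the higher mean per kb in shCtrl and ACLY in shmiR155HG libraries. FASN had a higher mean per kb than SCD in both groups. That gap was within the SD of FASN in shCtrl but not in shmiR155HG libraries. The lowest, with overlapping libraries, were SREBF1 at 2.95, the desaturase FADS1 at 3.60 and INSIG2 at 4.14 CPM per kb. SREBF2 (40.8 CPM per kb) was thus higher than SREBF1, and INSIG1 (34.5 CPM per kb) higher than INSIG2, in both groups. ACSS2, which makes acetyl-CoA from acetate, had 15, 0 and 4 counts in the shCtrl libraries and 3, 22 and 10 counts in the shmiR155HG libraries, did not pass the filter on low counts (more than 1 CPM in at least 2 libraries) and was not tested.

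**Figure D2:**
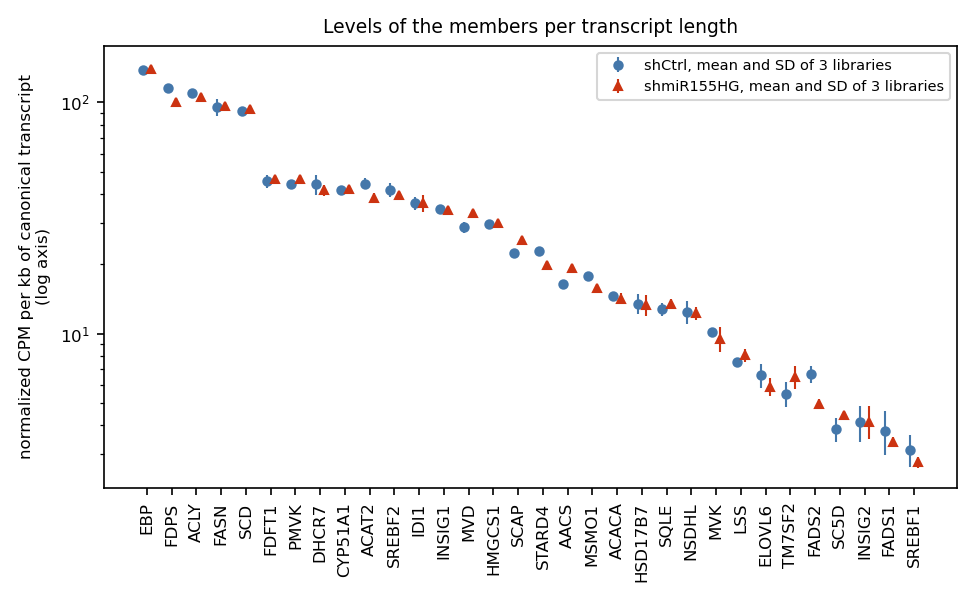
Mean normalized CPM per kb of canonical transcript (log axis) with the SD of 3 libraries for the 32 tested members, shCtrl as circles and shmiR155HG as triangles. EBP, FDPS, ACLY, FASN and SCD form the top of the order and SREBF1 the bottom, and for most genes the symbols of the groups lie side by side.

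The question put to the members was whether their mRNA levels differed between shmiR155HG and shCtrl cells. Most did not differ by an amount this design could call, and the few that did moved in both directions by small amounts. By edgeR's quasi-likelihood test, with adjusted p limited to 0.05, 3 of 32 members rose (MVD, SCAP and AACS) and 4 fell (ACAT2, FDPS, STARD4 and FADS2). Over the 12263 genes tested, 7.26% were called higher and 8.02% lower, 15.3% in all, so the 21.9% of members called is near the background and is not a result about the members. The groups did not overlap for 4 members that were higher and 6 that were lower in shmiR155HG cells, while 15.2% of all genes tested were higher and 15.6% lower without overlap. The median log2 fold change was −0.0053 over the members and 0.00097 over all genes tested, and the median absolute value was 0.081 against 0.12. With the study's rule (exact test, unadjusted P under 0.01 and fold change over 1.2) rerun here, 8.31% of all genes tested were called. FADS2 was the only member among them. The paper reports more genes in each direction, so the rerun does not reproduce its counts.

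**Figure D3:**
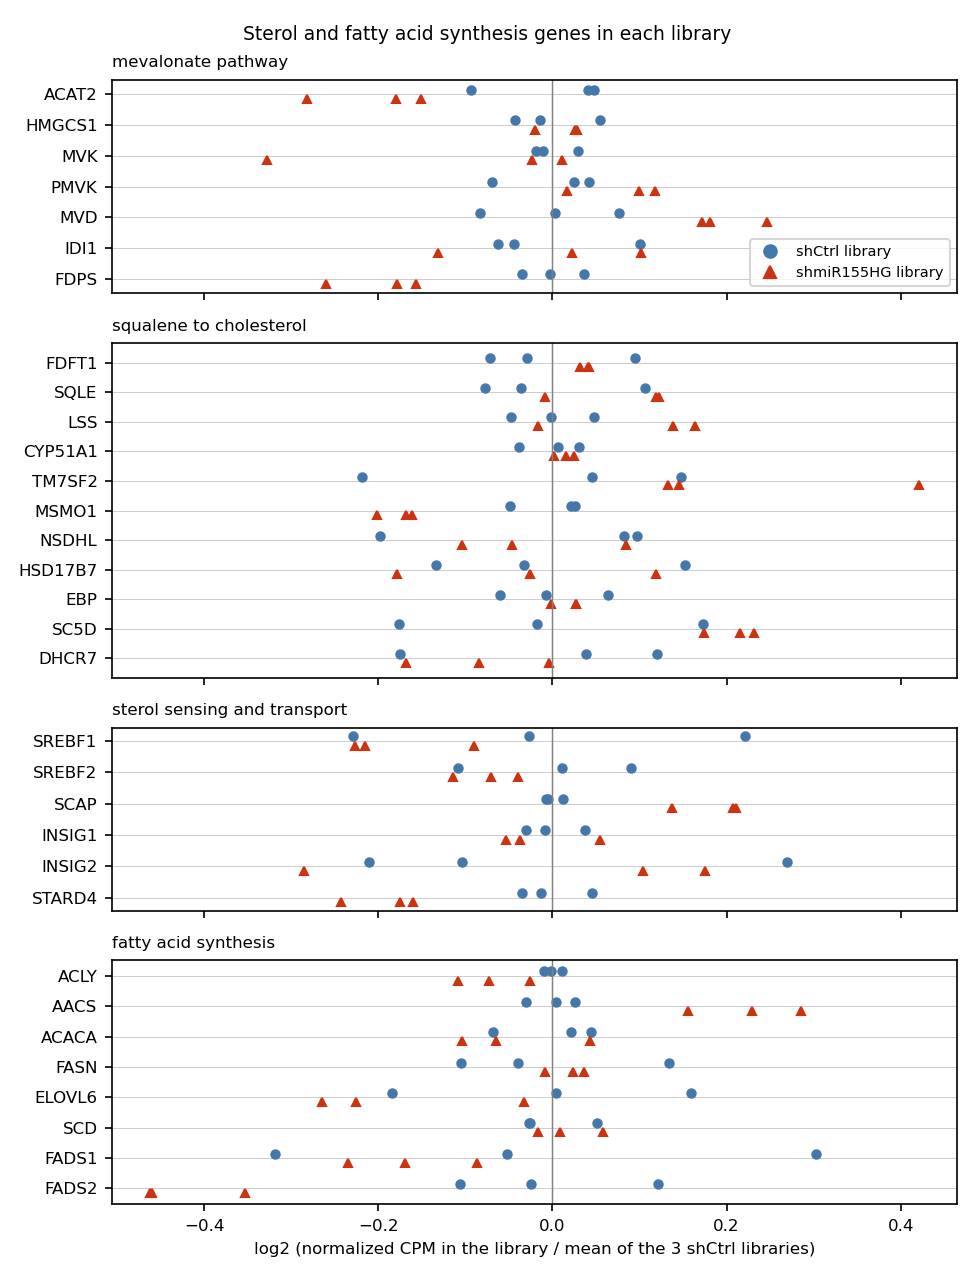
Normalized CPM of each tested member in each library relative to the mean of the 3 shCtrl libraries (log2, x axis), in 4 groups, with shCtrl libraries as circles and shmiR155HG libraries as triangles. The triangles lie to the right of all circles for AACS, MVD, SCAP and SC5D, where the nearest symbols of SC5D almost coincide (29.76 and 29.80 CPM). They lie to the left of all circles for ACAT2, FDPS, MSMO1, STARD4, ACLY and FADS2, and mix with them for the other 22 genes.

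The precision was high enough to bound most of the differences. The 32 members had 272 to 34616 counts per library, and the SE of their log2 fold changes lay between 0.033 and 0.15 with a median of 0.064. For 17 members, the 95% interval of the fold change lay within 1.2-fold either way, which held for 40.6% of all genes tested. Among the 15 whose intervals reached past this limit were the 7 called members and members with few reads, such as TM7SF2, SREBF1, INSIG2 and FADS1. Of the 32 tested members, 17 overlap another gene of the table in the annotation. In a bulk sample, a difference in the level per cell and a difference in the share of cells that express a gene cannot be told apart.

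In the mevalonate pathway, MVD rose while ACAT2 and FDPS fell, and the other 4 members were not called. HMGCS1, the synthase that makes HMG-CoA, stood at 157, 165 and 154 CPM in the shCtrl libraries and 162, 162 and 157 CPM in the shmiR155HG libraries. The shmiR155HG libraries lay within the shCtrl range, and the log2 fold change was 0.012 with a 95% interval from −0.074 to 0.10. IDI1, the isomerase that makes the reactive isoprene unit, had a log2 fold change of 0.00057 with an interval from −0.12 to 0.12. The kinases MVK and PMVK had log2 fold changes of −0.10 and 0.079, and MVK was low in shmiR155HG replicate 3 alone. Summed over its 7 genes, the pathway stood at 616 ± 8.25 CPM for shCtrl and 595 ± 11.5 CPM for shmiR155HG (SD, n = 3 each). The 3 shmiR155HG libraries (584 to 607 CPM) lay below the shCtrl libraries (609 to 625 CPM). FDPS alone went from a mean of 163 CPM in shCtrl to 142 CPM in shmiR155HG libraries, about as large a fall as that of the sum.

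FDPS (ENSG00000160752, on the plus strand of chromosome 1 from 155308748 to 155320666 of hg38, with 11 exons in its canonical transcript) makes farnesyl diphosphate, from which both sterols and the lipid anchors of prenylated proteins are made. Its level was 163, 168 and 159 CPM in the shCtrl libraries and 136, 147 and 144 CPM in the shmiR155HG libraries, so the 3 shmiR155HG libraries were all lower than the lowest shCtrl library. The mean was 163 ± 4.03 CPM for shCtrl against 142 ± 5.37 CPM for shmiR155HG (SD, n = 3 each), a log2 fold change of −0.20 (adjusted p = 0.00186, SE 0.0431), or 87.2% of the shCtrl level. This call held in 16 of 17 alternative settings, with values from −0.23 to −0.17, and missed only the study's rule, where the fold change was under 1.2. GENCODE names 8 pseudogenes of FDPS, none of which has an entry in the count table, and the antisense gene RUSC1-AS1 overlaps it (11.7 CPM, log2 fold change −0.42, adjusted p = 0.0430, SE 0.141), so part of the FDPS counts could belong to these.

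ACAT2, the cytosolic thiolase of the opening step (ENSG00000120437, on the plus strand of chromosome 6 from 159762045 to 159779112), had 70.0, 63.5 and 69.7 CPM in the shCtrl libraries and 55.7, 61.0 and 59.8 CPM in the shmiR155HG libraries. All 3 shmiR155HG libraries were lower, with a log2 fold change of −0.20 (adjusted p = 0.0306, SE 0.0642). ACAT2 overlaps the chaperonin gene TCP1 on the opposite strand, which had a log2 fold change of −0.19 (adjusted p = 0.000101, SE 0.0317) at a far higher level of 459.5 CPM. Without strand in the counting, reads from the stretch that both genes cover (159778498 to 159779112) cannot be told apart. The ACAT2 call was lost without any of shCtrl replicate 1 (adjusted p = 0.123 by edgeR), shCtrl replicate 3 (0.0906), shmiR155HG replicate 1 (0.144) or shmiR155HG replicate 3 (0.0653), and after a correction for GC content (0.0527), where the log2 fold change was −0.18.

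MVD, the decarboxylase that yields isopentenyl diphosphate (ENSG00000167508, on the minus strand of chromosome 16 from 88651935 to 88663161), was higher in shmiR155HG cells. Its level was 51.9, 48.9 and 54.7 CPM in the shCtrl libraries and 61.5, 58.8 and 58.4 CPM in the shmiR155HG libraries, without overlap, and the log2 fold change of 0.20 (adjusted p = 0.0359, SE 0.0654) amounted to 115% of the shCtrl level. The MVD transcript has a GC content of 65.5%, and a correction for GC content brought the value to 0.11 (adjusted p = 0.281). The call was also lost on leaving out shCtrl replicate 1 (adjusted p = 0.0826), shCtrl replicate 2 (0.168) or any of the shmiR155HG replicates 1, 2 and 3 (0.130, 0.0765 and 0.0599).

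From squalene to cholesterol, none of the 11 members was called by the quasi-likelihood test, DESeq2, limma-voom or the exact test. At an unadjusted p under 0.05, there were 2 genes, MSMO1 and SC5D, by each of these tools. The log2 fold changes ran from −0.18 for MSMO1 to 0.24 for TM7SF2, with a median of 0.018, and 8 of the 11 intervals lay within 1.2-fold. Summed over the 11 genes, the level was 689 ± 10.9 CPM for shCtrl and 693 ± 3.83 CPM for shmiR155HG (SD, n = 3 each).

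The genes at the head of this branch were close to equal between the groups. FDFT1, the squalene synthase, had 90.8, 99.0 and 88.2 CPM in the shCtrl libraries and 95.3, 95.4 and 94.7 CPM in the shmiR155HG libraries, and an interval from −0.073 to 0.15 around a log2 fold change of 0.038. SQLE, the squalene epoxidase and a rate-controlling enzyme, had 40.6, 35.8 and 36.8 CPM in the shCtrl libraries and 37.5, 41.0 and 41.0 CPM in the shmiR155HG libraries, with an interval from −0.079 to 0.24. LSS, which closes the ring system to lanosterol, had a log2 fold change of 0.10, and CYP51A1, the lanosterol demethylase, one of 0.014 with an interval from −0.076 to 0.10. All 6 libraries of CYP51A1 lay between 128 and 135 CPM.

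Further along, the methylsterol oxidase MSMO1 had 40.2, 38.2 and 40.1 CPM in the shCtrl libraries and 35.2, 34.4 and 35.3 CPM in the shmiR155HG libraries. The groups did not overlap, but the log2 fold change of −0.18 (adjusted p = 0.112, SE 0.0740) missed the threshold. SC5D, a sterol desaturase, had 26.1, 29.8 and 23.4 CPM in the shCtrl libraries and 30.7, 29.8 and 31.0 CPM in the shmiR155HG libraries, where the highest shCtrl library was just under the lowest shmiR155HG library and the change was also short of the threshold (log2 fold change 0.21, adjusted p = 0.140, SE 0.0924). After the GC correction, SC5D had a log2 fold change of 0.27 and was called (adjusted p = 0.0414). The reductase TM7SF2 had a log2 fold change of 0.24 but only 272 to 442 counts per library, with an interval from −0.077 to 0.56. The remaining genes NSDHL, HSD17B7, EBP and DHCR7, which remove methyl groups, reduce a ketone, shift a double bond and reduce the last one, had log2 fold changes of −0.019, −0.024, 0.018 and −0.083. For HSD17B7 and CYP51A1, GENCODE names 3 pseudogenes each that have no entry in the count table, as it does for IDI1 (3), AACS (2) and SCD (1).

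**Figure D4:**
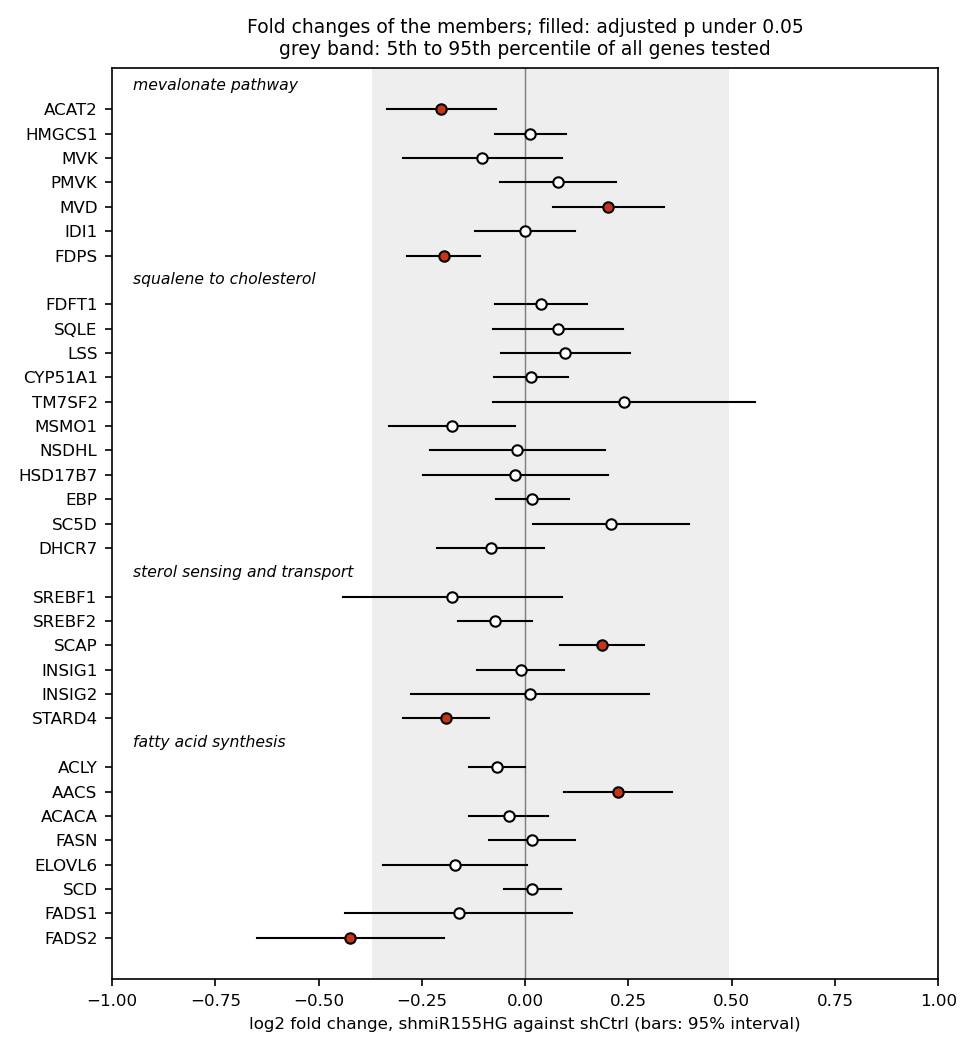
Log2 fold change of each tested member, shmiR155HG against shCtrl, with its 95% interval (x axis), in 4 groups; filled circles have an adjusted p under 0.05, and the grey band spans the 5th to 95th percentile of all genes tested (−0.37 to 0.49). Of the 7 filled circles, that of FADS2 alone lies outside the band, and no gene from squalene to cholesterol is filled.

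Among the genes of sterol sensing and transport, the transcription factors and the INSIG proteins were not called, SCAP rose and STARD4 fell. SREBF2, which encodes the activator of the sterol genes, had 204, 234 and 221 CPM in the shCtrl libraries and 209, 213 and 203 CPM in the shmiR155HG libraries. The libraries overlapped, with a log2 fold change of −0.074 (adjusted p = 0.292, SE 0.0438) and an interval from −0.16 to 0.016. SREBF1, whose SREBP1 products act mainly on fatty acid genes, had 13.1, 15.1 and 17.9 CPM in the shCtrl libraries and 13.1, 13.2 and 14.4 CPM in the shmiR155HG libraries, and the log2 fold change of −0.18 (adjusted p = 0.412, SE 0.129) carried a wide interval from −0.44 to 0.089. In shCtrl cells, SREBF1 was highest in replicate 3, as were FASN and DHCR7. SCD and FADS1 were highest in replicate 2 instead, and ELOVL6 was lowest in replicate 3.

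INSIG1, itself a target of SREBPs, had 103, 100.2 and 98.6 CPM in the shCtrl libraries and 98.1, 97.1 and 105 CPM in the shmiR155HG libraries. Its log2 fold change was −0.011 with an interval from −0.12 to 0.094 (adjusted p = 0.922). INSIG2 had 12.7, 17.7 and 13.7 CPM in the shCtrl libraries and 15.8, 12.1 and 16.6 CPM in the shmiR155HG libraries, with a log2 fold change of 0.012 (adjusted p = 0.973, SE 0.141), and its libraries were spread so widely that the interval ran from −0.28 to 0.30. The signs of both changed among the alternative settings, in 5 of 17 for INSIG1 and 4 of 17 for INSIG2.

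SCAP, the escort that carries SREBPs to the Golgi (ENSG00000114650, on the minus strand of chromosome 3 from 47413681 to 47477126), had 94.4, 95.4 and 94.2 CPM in the shCtrl libraries and 109.5, 109 and 104 CPM in the shmiR155HG libraries. The shCtrl libraries were nearly equal and all 3 shmiR155HG libraries lay above them, with a log2 fold change of 0.19 (adjusted p = 0.00997, SE 0.0496), or 114% of the shCtrl level. With the GC correction (transcript GC content 61.7%) the value was 0.12 (adjusted p = 0.102), and leaving out shmiR155HG replicate 2 gave an adjusted p of 0.0534.

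STARD4, a soluble carrier of cholesterol between membranes (ENSG00000164211, on the minus strand of chromosome 5 from 111496033 to 111512590), had 108, 104 and 102 CPM in the shCtrl libraries and 88.7, 92.9 and 93.9 CPM in the shmiR155HG libraries. Each shmiR155HG library was below each shCtrl library, with a log2 fold change of −0.19 (adjusted p = 0.00997, SE 0.0512), or 87.5% of the shCtrl level. Its transcript is poor in GC (34.4%), and after the GC correction the value was −0.12 (adjusted p = 0.101). The adjusted p was 0.0568 without shCtrl replicate 1 and 0.0584 without shmiR155HG replicate 1.

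GC content is given beside these genes because the fold changes of all genes tested moved with it. The median log2 fold change was −0.051 in the 4072 genes lowest in GC content (up to 43.7%), 0.0045 in the middle 4072 and 0.056 in the highest 4072 (from 53.6%). The members did not show this order, with medians of 0.0061 (8 genes), −0.021 (10 genes) and 0.017 (14 genes). With the correction, FDPS, AACS, FADS2 and SC5D were the members called.

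In fatty acid synthesis, the enzymes of the central route differed little between the groups. FASN, which builds palmitate, had 752, 787 and 887 CPM in the shCtrl libraries and 804, 829 and 822 CPM in the shmiR155HG libraries. The spread within shCtrl exceeded the difference between the means, 809 ± 70.1 CPM for shCtrl against 818 ± 12.8 CPM for shmiR155HG (SD, n = 3 each), and the interval of its log2 fold change of 0.017 ran from −0.087 to 0.12. Without shCtrl replicate 3, the highest library, the value was 0.091 and FASN was called (adjusted p = 0.0457). SCD, which places the double bond of oleate, had 475, 501 and 475 CPM in the shCtrl libraries and 504, 487 and 478 CPM in the shmiR155HG libraries and an interval from −0.052 to 0.087. ACACA, the carboxylase that commits acetyl-CoA to fatty acids, had a log2 fold change of −0.040 with an interval from −0.14 to 0.056.

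ACLY had 469.9, 473 and 477 CPM in the shCtrl libraries and 465, 449.9 and 439 CPM in the shmiR155HG libraries. The shmiR155HG libraries were all lower, but by little, with a log2 fold change of −0.068 (adjusted p = 0.180, SE 0.0330). The elongase ELOVL6 had a log2 fold change of −0.17 (adjusted p = 0.195, SE 0.0846) with overlapping groups, and without shCtrl replicate 3 it was −0.25 and called (adjusted p = 0.0475).

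AACS (ENSG00000081760, on the plus strand of chromosome 12 from 125065434 to 125143333) activates acetoacetate, a ketone body, in the cytosol and so feeds both sterol and fatty acid synthesis. It stood at 52.3, 53.6 and 54.4 CPM in the shCtrl libraries and 65.2, 59.5 and 62.6 CPM in the shmiR155HG libraries, with no overlap, and rose with a log2 fold change of 0.22 (adjusted p = 0.0150, SE 0.0636), or 117% of the shCtrl level. Leaving out shCtrl replicate 1 or shmiR155HG replicate 1 took the adjusted p to 0.0594 and 0.0788, and the GC correction with a replicate block took it to 0.0514 at a log2 fold change of 0.20. With the GC correction alone, AACS was called.

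FADS2 had the largest absolute log2 fold change of the 32 tested members. It encodes the desaturase that begins the conversion of the essential polyunsaturated fatty acids (ENSG00000134824) and spans 61792980 to 61867354 on the plus strand of chromosome 11. The level was 19.2, 20.3 and 22.4 CPM in the shCtrl libraries and 16.2, 15.0 and 15.0 CPM in the shmiR155HG libraries. The shmiR155HG libraries were closely grouped below all shCtrl libraries, and the mean was 20.6 ± 1.66 CPM for shCtrl against 15.4 ± 0.672 CPM for shmiR155HG (SD, n = 3 each). This gave a log2 fold change of −0.42 (adjusted p = 0.00810, SE 0.110), with an interval from −0.65 to −0.20, or 74.6% of the shCtrl level. It was called in 16 of 17 alternative settings, with values from −0.47 to −0.36, and just missed the threshold without shCtrl replicate 3 (adjusted p = 0.0509). FADS1, its neighbour on the opposite strand and the next desaturase of the same route, had 13.3, 20.5 and 16.0 CPM in the shCtrl libraries and 15.6, 14.1 and 14.7 CPM in the shmiR155HG libraries, with a log2 fold change of −0.16 (adjusted p = 0.482, SE 0.134), and shCtrl replicates 1 and 2 lay below and above all other libraries. The annotated span of FADS2 overlaps FADS1 and, on its own strand, FEN1, a nuclease gene with a log2 fold change of −0.011 (adjusted p = 0.911, SE 0.0435). Whether FADS1 and FADS2 differ in their response was not tested.

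**Figure D5:**
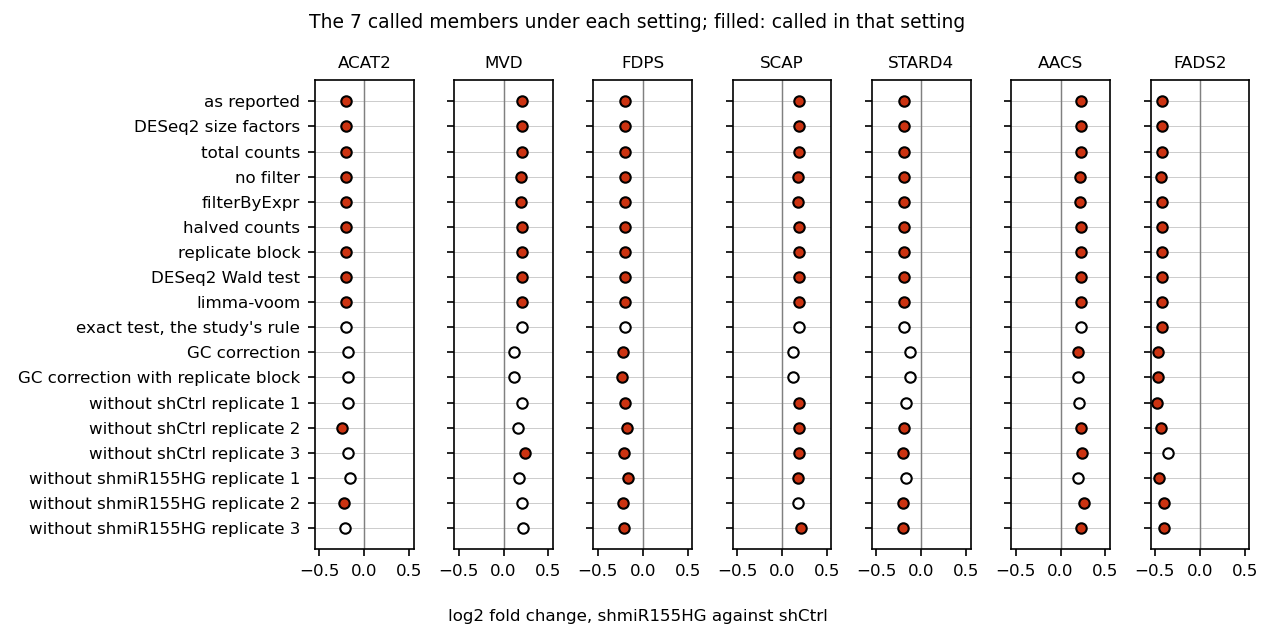
Log2 fold change (x axis) of the 7 called members under the reported setting and each of 17 alternatives (y axis), filled where the member was called. FDPS and FADS2 are filled in all but 1 alternative each, MVD is open in 8 and ACAT2 in 7, and no value crosses 0.

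Genes around the pathway were described from 5 further lists. Of 10 genes that process or degrade SREBPs and their partners, ERLIN1, which takes part in sterol-regulated degradation, fell (log2 fold change −0.28, adjusted p = 0.00833, SE 0.0735) and C12orf49, needed for SREBP cleavage, rose (log2 fold change 0.16, adjusted p = 0.0396, SE 0.0535). Of 14 genes of the isoprenoid side branches, the methyltransferase of prenylated proteins ICMT fell (log2 fold change −0.19, adjusted p = 0.000160, SE 0.0339) and RABGGTB, which attaches lipid anchors to Rab proteins, rose (log2 fold change 0.16, adjusted p = 0.0226, SE 0.0477). Of the 15 tested genes of sterol uptake, efflux and storage, SOAT1, which esterifies cholesterol for storage, fell (log2 fold change −0.27, adjusted p = 0.000445, SE 0.0508) and the lipoprotein receptor LRP8 rose (log2 fold change 0.11, adjusted p = 0.0175, SE 0.0324).

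Of the 23 tested genes of fatty acid elongation, activation and glycerolipid synthesis, 3 fell and none rose, namely ACSL3, ACSL5 and ELOVL5, with log2 fold changes of −0.20, −0.18 and −0.11. Of the 17 tested genes of fatty acid oxidation, the mitochondrial carnitine carrier SLC25A20 rose (log2 fold change 0.34, adjusted p = 0.000632, SE 0.0664), and the oxidation enzymes ACAA2 and ACADM fell, with log2 fold changes of −0.19 and −0.14. Summed over its 19 genes, the oxidation list stood at 1393 to 1401 CPM in shCtrl libraries and 1311 to 1356 CPM in shmiR155HG libraries, without overlap. ACAA2 alone went from a mean of 266 CPM in shCtrl to 233 CPM in shmiR155HG libraries. Of the 17 tested log2 fold changes, 14 were negative, beside 6102 of the 12263 genes tested. Whether the list fell as a set was not tested. The median log2 fold changes of these 5 lists lay between −0.12 and 0.0097, and 13.0% to 20.0% of their tested genes were called, beside 15.3% of all genes tested.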

How the data were processed

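RNA-seq libraries of 6 NK92 samples (3 shCtrl, 3 shmiR155HG) were used. According to the methods, the authors used HISAT2 for alignment to hg38, estimated known transcripts with StringTie and merged the values with prepDE.py3. They deposited whole-number counts per gene without normalization. The annotation release, strand setting and tool versions are not given in the sources used here. Titles set the groups, since the treatment entries for replicates 2 and 3 of shmiR155HG give the gene name with a different number.

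The analysis used edgeR 4.0.16, with limma 3.58.1 and DESeq2 1.42.0 as alternatives, in R 4.3.3. A gene was kept where 2 or more libraries had over 1 CPM (12263 genes, 32 members), scaled with TMM and tested with edgeR's robust quasi-likelihood test, with Benjamini-Hochberg adjustment over all genes and no replicate block. Intervals are 95% intervals from the t distribution of that fit. Each SD is that of the normalized CPM of 1 group. These and the SE cover the spread of libraries, and PCR duplicates were not separated. Full values were given for called members and the regulators SREBF1, SREBF2, SCAP, INSIG1 and INSIG2. Up to 3 called genes of the largest change, their mean being 1 CPM or more, were named from each other list. The members and lists were chosen with earlier results of these data known. A further B cell marker is not reported here. Positions, canonical transcripts and GC content come from GENCODE release 44 for hg38, which matched 36366 of 36601 gene IDs, and promoters from RefSeq. The fit was also run on simulated counts with planted changes larger than those of the members, so this run does not cover changes of their size.

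Replicates with the same number did not deviate together (correlations from −0.017 to −0.0022), so the numbers were not taken as pairs. The alternatives covered scaling, filter, halved counts, the replicate block, DESeq2, limma-voom, the exact test under the study's rule, a loess correction for GC content per library and each library left out in turn.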

Additional observations from a re-analysis of the deposited data

How the results depend on the processing

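No called member changed its direction under any of the 17 alternatives. With the study's rule as rerun here, members called numbered 0 higher and 1 lower, and all genes 552 higher and 467 lower. The rule differs in the test, the limit on P and the fold limit. Both all-gene counts are below those the paper reports. The GC correction gave 2 members called higher (AACS and SC5D) and 2 lower (FDPS and FADS2), and with a replicate block added 0 higher and 2 lower. Leaving out 1 library at a time gave 1 to 4 members higher and 2 to 4 lower, and 580 to 891 genes higher and 674 to 917 lower of all tested. The lowest counts of all genes called, in both directions, came without shmiR155HG replicate 2, and without shCtrl replicate 3 the 4 members higher included FASN. The members called fell to 3 in all without shCtrl replicate 1 and without shmiR155HG replicate 1.

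With the replicate block alone, 3 members were called higher and 4 lower, and 829 and 909 of all genes, and no member's call changed. No replicate pairing is implied by this, since same-numbered libraries did not correlate. Of the 544 comparisons of a member's log2 fold change with its reported value, 511 kept the call or lack of one, 30 lost the call and 3 gained one, and the sign differed in 34, none of them for a called member. No scaling moved the all-gene median log2 fold change by 0.1 or more. Members with few counts, such as TM7SF2, FADS1, SREBF1 and INSIG2, have intervals too wide to exclude a change of 1.2-fold.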
